A study of Mus musculus with 21 samples.

Results

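Activated CD4 T cells from Foxp3-knockout mice were compared with activated cells from Foxp3 reporter mice, both kept without added TGFB. The arrays were taken by their titles alone: 3 arrays titled as untreated Marilyn.Foxp3-/- cells and 5 arrays titled as untreated Marilyn.Foxp3hCD2 cells, which makes 8 of the 21 arrays in the series. Marilyn mice carry a transgenic T cell receptor for the male antigen HY, so their CD4 T cells share one specificity, and the hCD2 reporter places human CD2 on cells that express Foxp3. All cells came from cultured splenocytes, and both groups are labelled with the sort CD4+CD2. The labels do not say whether this CD2 is the mouse protein or the human reporter, how Foxp3 was disrupted, whether the knockout cells also carry the reporter, or how old the mice were. Reporter replicates 1 to 3 belong to study 1, and reporter replicates 4 and 5 and the 3 knockout arrays belong to study 2. The other arrays hold TGFB-treated cells: 5 arrays of reporter cells sorted as hCD2-positive, 5 of reporter cells sorted as hCD2-negative and 3 of knockout cells.

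Foxp3 encodes a forkhead transcription factor on which the regulatory T cell lineage depends. Conventional CD4 T cells switch it on when their receptor is stimulated in the presence of TGFB, and without TGFB most activated cells remain effector-like and make cytokines. In cells that hold Foxp3, the factor is known to keep Il2 and other effector genes low and to sustain surface molecules such as CD25 and CD39. The comparison asks how the genotypes differ before that induction.

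Levels are log2 values, quantile-normalized over all 21 arrays because the deposited values of the genotypes had different ranges: the lower quartiles of the untreated knockout arrays were 5.63, 5.65 and 5.68, and those of the untreated reporter arrays lay between 4.98 and 5.02. A genotype effect and an effect of separate normalization therefore cannot be told apart in anything that moves many genes together. Within the knockout group, replicates 1 and 2 had narrow deposited interquartile ranges of 2.41 and 2.38 and replicate 3 had 2.94, beside 2.74 to 3.14 on the reporter arrays. Over the 14860 genes tested, knockout replicate 3 correlated best with reporter replicate 4 (r = 0.984), above its correlations of 0.972 and 0.974 with knockout replicates 1 and 2. Reporter arrays of study 1 and study 2 correlated at 0.956 to 0.968 with each other. Differences below are knockout minus reporter on the log2 scale, from a limma fit with a term for study, with ± as the standard error. A gene is called when its Benjamini-Hochberg adjusted p is under 0.05.

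The cluster of probes that holds Foxp3 also holds Flicr, a non-coding RNA gene beside it. It read 6.80, 6.37 and 6.26 on the knockout arrays and 6.46, 6.51, 6.12, 6.32 and 6.58 on the reporter arrays. The groups overlapped, at a level near the median of all array values (6.46). The difference was -0.27 ± 0.26 with a 95% interval from -0.82 to 0.29 (limma adjusted p = 0.623 over 23332 clusters). The same cluster reached 10.19 to 11.73 on the 5 hCD2-positive TGFB arrays 8.11 to 8.48 on the 3 TGFB-treated knockout arrays and 6.49 to 7.33 on the 5 hCD2-negative TGFB arrays. The TGFB-treated arrays labelled knockout thus lay above every hCD2-negative array and below every hCD2-positive one, which is not what the label alone would give for an absent transcript. In the fit they were 0.88 above the hCD2-negative arrays, which was not called (limma adjusted p = 0.12 over 23332 clusters). The sources used here do not say which part of Foxp3 is disrupted or where its probes lie, and the untreated reporter cells were themselves low, so the knockout label was not checked by this cluster. In what follows, knockout cells are the cells that carry that label.

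**Figure D1:**
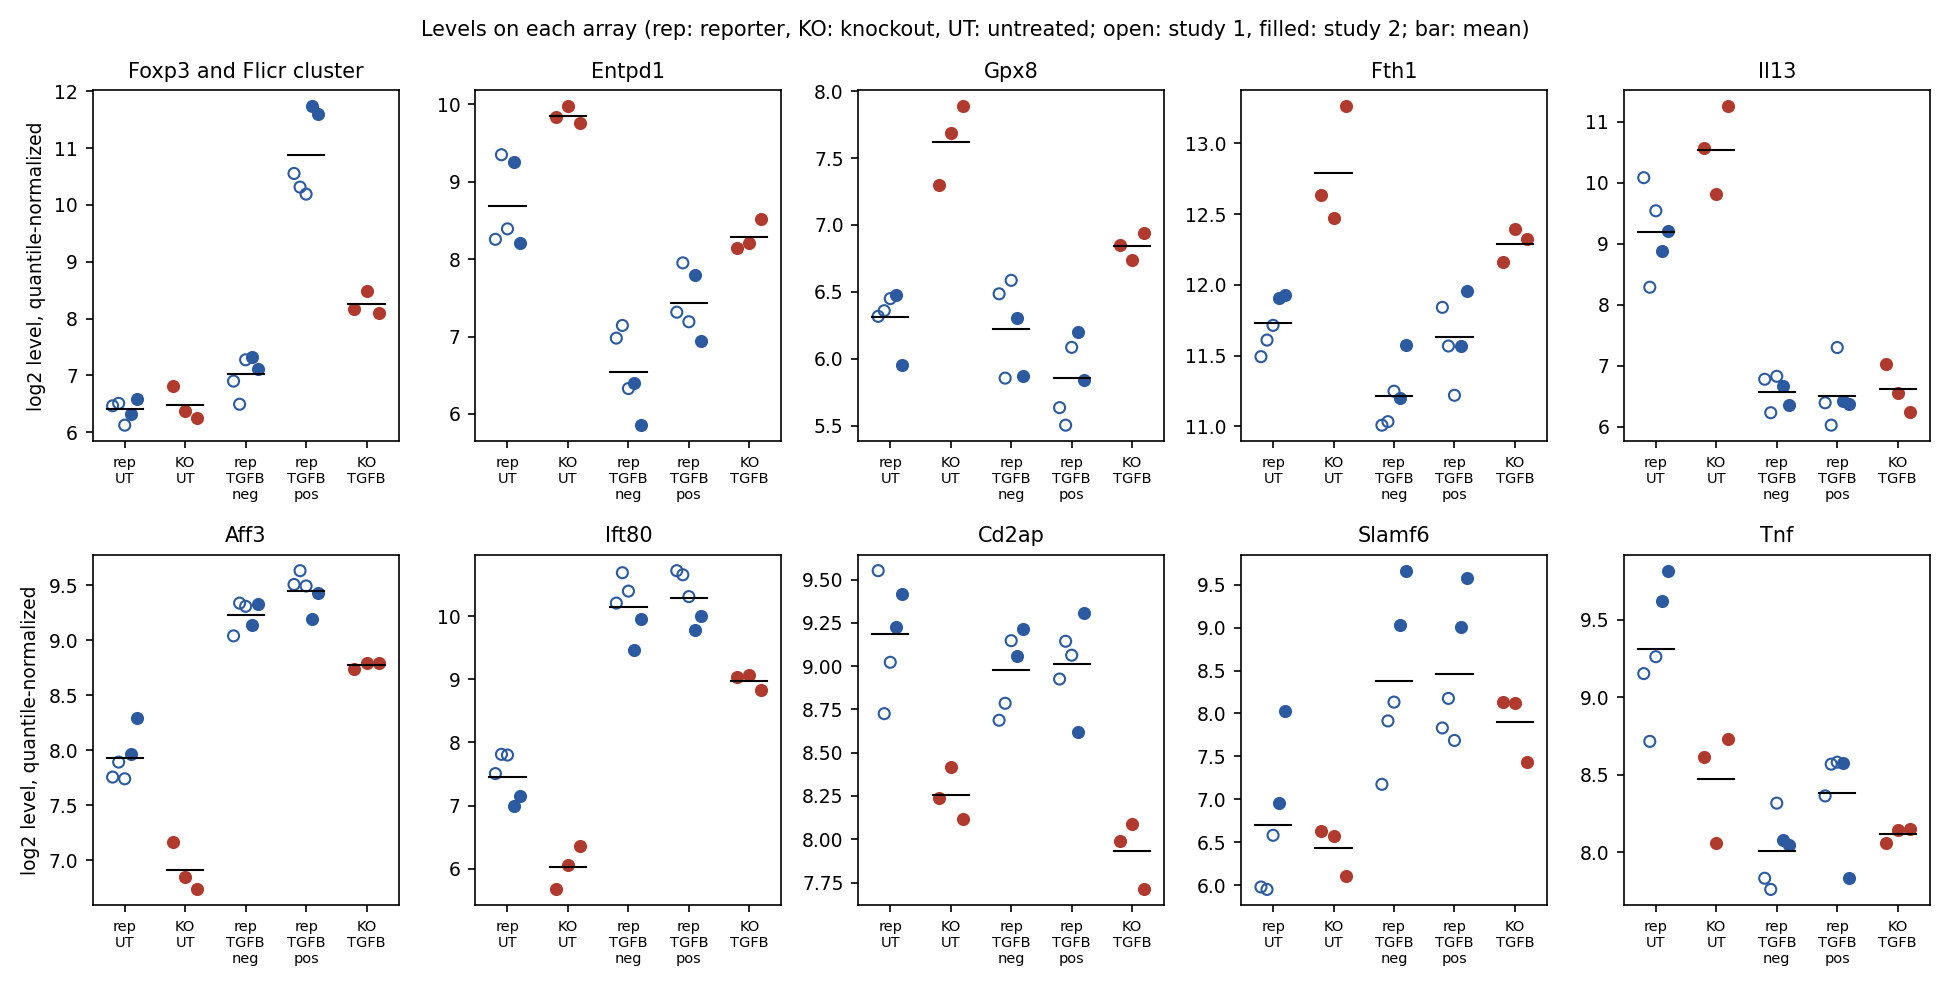
Level of the Foxp3 and Flicr cluster and of 9 genes on every array, with the 5 groups along the horizontal axis and the log2 quantile-normalized level on the vertical axis. Blue points are reporter arrays, open for study 1 and filled for study 2, red points are knockout arrays, and bars are group means. The Foxp3 cluster was near equal in both untreated groups, and Gpx8 was above every reporter array on all 3 untreated knockout arrays.

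The genotypes differed in 400 of 14860 genes, which is 2.69% of the genes tested. Of these, 226 were higher in the knockout cells (1.52%) and 174 were lower (1.17%). Most differences were small: the median absolute difference of the called genes was 0.66, and 50 genes differed by at least 2-fold, 29 higher and 21 lower. At an unadjusted p under 0.05 there were 3057 genes (20.6%), 1748 higher and 1309 lower, and the difference was negative in 6624 of the 14860. The 3 knockout arrays lay entirely above or below the 5 reporter arrays in 349 of the 400 called genes and in 2609 of all genes (17.6%), of which 1737 were higher (11.7%) and 872 lower (5.87%). On the deposited values without joint normalization, 6846 genes were called (46.1%), 6825 higher (45.9%) and 21 lower (0.141%), and the median difference over all genes moved from 0.04 to 0.44. Over all 23332 clusters, named or not, 214 were called (0.917%), 119 higher (0.51%) and 95 lower (0.407%).

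The count rests on few arrays. Leaving out knockout replicate 1 left 60 calls, leaving out knockout replicate 2 left 123, and leaving out knockout replicate 3, the array closest to the reporter cells, gave 792. Without reporter replicate 5 there were 225 calls, and without any other reporter array 299 to 341. With the study 2 arrays alone, 3 against 2, 70 genes were called (0.471%), 38 higher (0.256%) and 32 lower (0.215%), and 57 of them were among the 400. With the 8 untreated arrays fitted alone, 0 genes were called and 2220 had an unadjusted p under 0.05 in limma. All 400 genes kept their direction in each of the 8 fits that left out 1 untreated array, and 49 remained called in every one of them, 29 higher and 20 lower. The 400 were called with these same arrays, so a kept direction was likely beforehand and is not separate support.

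**Figure D2:**
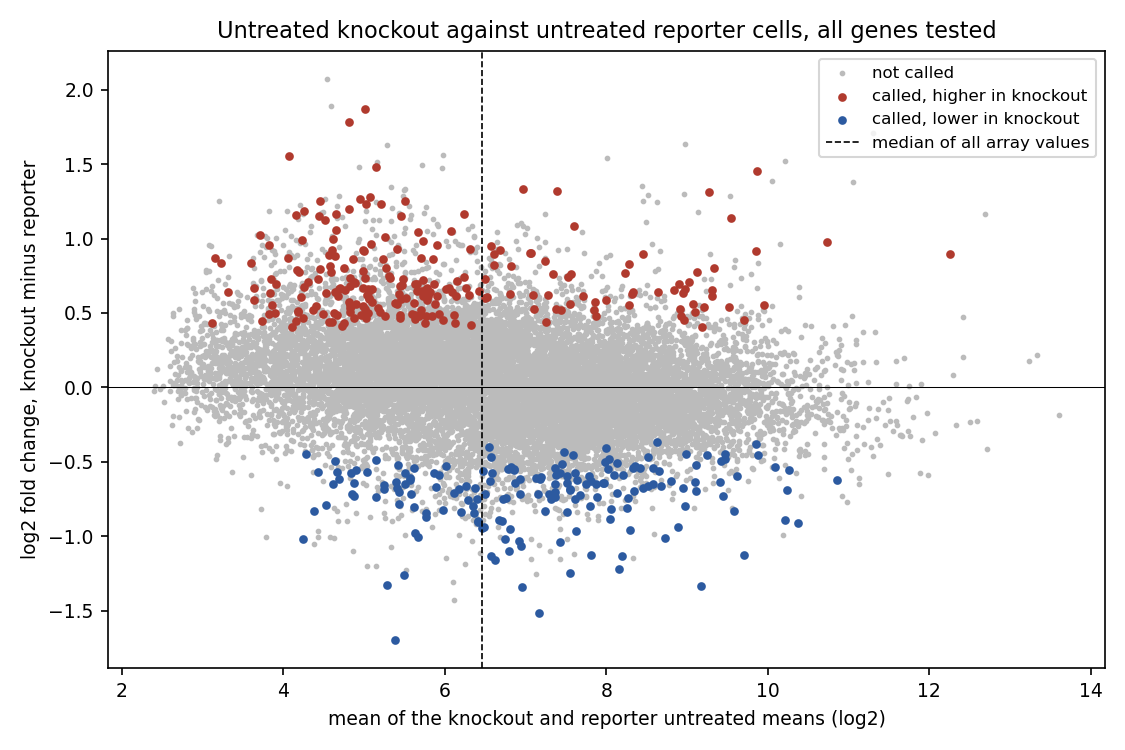
Each point is 1 of the 14860 genes, with the mean of the knockout and reporter untreated levels (log2) on the horizontal axis and the knockout minus reporter difference (log2) on the vertical axis. Red and blue points are the 226 genes called higher and the 174 called lower in the knockout cells, and the dashed line is the median of all array values. Red points lie mostly to the left of that line and blue points mostly to the right.

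The brightness of the called genes differed by direction. Among the 226 higher genes, 153 (67.7%) had even the brighter group below the median of all array values, against 42 (24.1%) of the 174 lower genes and 42.6% of all genes tested. Olfactory and vomeronasal receptor genes, which T cells are not known to use, had a median difference of 0.39 over 800 genes, with 15 called higher (1.88%) and 1 lower. Whether levels that low were above background was not tested. When the dimmest genes were left out and 9906 were tested, 149 genes were called, 52 higher and 97 lower, so that lower genes made up the majority. The genes described first below had at least 1 group mean above the array median, and 24 of the 49 genes called in every leave-one-out fit met this, 11 higher and 13 lower.

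Among those higher in the knockout cells, Gpx8, an endoplasmic reticulum member of the glutathione peroxidase family, had the largest difference of the genes picked out by brightness and separation. It read 7.30, 7.69 and 7.89 on the knockout arrays and 6.32, 6.36, 6.45, 6.47 and 5.95 on the reporter arrays. The groups did not overlap, and the difference was 1.33 ± 0.21, or 2.52-fold (limma adjusted p = 0.00399). Fth1, the heavy chain of the iron store ferritin, was among the brightest called genes. Its levels were 12.64, 12.47 and 13.26 in knockout cells and 11.49, 11.61, 11.71, 11.91 and 11.93 in reporter cells. Knockout replicate 3 was the highest array and the groups stayed apart, with a difference of 0.90 ± 0.18 (limma adjusted p = 0.0121). Gpx4, the glutathione peroxidase that repairs oxidised membrane lipids, read 10.90, 11.38 and 10.96 against 10.41, 10.21, 10.65, 10.01 and 10.69. Its difference of 0.98 ± 0.24 was called with all arrays (limma adjusted p = 0.036) but reached an adjusted p of 0.157 when 1 array was left out, the call being lost without knockout replicate 1 or 2 or reporter replicate 1, 2 or 4.

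Adgrg3, an adhesion G protein-coupled receptor known from granulocytes, read 7.74, 8.13 and 8.53 in knockout cells and 6.21, 6.62, 6.59, 7.09 and 6.75 in reporter cells. The arrays separated, with a difference of 1.32 ± 0.23 (limma adjusted p = 0.00576). Rmi1, a subunit of the complex that resolves DNA recombination intermediates, read 8.25, 8.36 and 8.0 against 6.94, 6.94, 6.87, 7.35 and 6.89. Its 3 knockout arrays were the highest, 1.09 ± 0.20 above the reporter level (limma adjusted p = 0.00736). Smim11, which encodes a small membrane protein, was the steadiest of the group, at 8.81, 8.83 and 8.66 against 7.73, 7.76, 7.70, 7.94 and 7.85. Its difference was 0.83 ± 0.14 (limma adjusted p = 0.00436), and it was also called with the study 2 arrays alone (0.87, adjusted p = 0.0292). Nop10, a subunit of the particles that guide pseudouridine synthesis in ribosomal RNA, and Nmral1, a sensor of the NADPH level, differed by 0.90 ± 0.16 and 0.91 ± 0.17 (limma adjusted p = 0.00785 and 0.00854). Both calls held in 7 of the 8 leave-one-out fits, with adjusted p = 0.0531 and 0.0534 without knockout replicate 1. Further genes called higher in all 8 of these fits, listed after their values were seen, were Msl3l2, Mcpt8, Akirin2, Capza2, Fes and Frmd4b.

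On the lower side, Aff3, a nuclear factor of the AFF family that acts in transcription elongation, read 7.16, 6.84 and 6.73 in knockout cells and 7.75, 7.89, 7.74, 7.96 and 8.29 in reporter cells. Every knockout array was below every reporter array, with a difference of -1.04 ± 0.15 (limma adjusted p = 0.00149). Ift80, a component of the intraflagellar transport machinery of cilia, read 5.67, 6.05 and 6.36 against 7.51, 7.81, 7.80, 7.0 and 7.15. The groups were apart by -1.02 ± 0.17 (limma adjusted p = 0.00485). Bmpr2, the type II receptor for bone morphogenetic proteins, which belong to the same ligand superfamily as TGFB, read 6.03, 6.21 and 6.79 against 7.51, 7.05, 7.18, 7.14 and 7.48. Its difference was -0.95 ± 0.16 (limma adjusted p = 0.00576). Ptpn6, which encodes the phosphatase SHP-1 that damps T cell receptor signalling, read 8.89, 8.68 and 8.83 against 9.28, 9.32, 9.42, 9.42 and 9.56. It varied little within either group, and the difference was -0.63 ± 0.11 (limma adjusted p = 0.00702). These 4 genes stayed called whichever single untreated array was left out, as did Chp1, Gypc, Hivep2, Lrig1, Ndufb9, Plekhm1, Ppcs, Prcc and Rab8a, listed after their values were seen.

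Nasp, a histone chaperone that supplies newly made histones during replication, had the lowest difference of the genes picked out by brightness and separation. It read 5.46, 6.14 and 6.72 in knockout cells, 8.34, 8.88 and 9.02 on the study 1 reporter arrays and 7.48 and 7.41 on the study 2 reporter arrays. The studies differed within the reporter cells, and the knockout arrays were below both, by 1.51 ± 0.28 in the fit with the study term (limma adjusted p = 0.00925, and 0.0677 without knockout replicate 1). Cd2ap, the adaptor that binds the cytoplasmic tail of CD2, read 8.24, 8.42 and 8.11 against 9.55, 8.73, 9.02, 9.23 and 9.42. Its arrays did not overlap, and the difference was -1.01 ± 0.19 (limma adjusted p = 0.0102, and 0.0534 without knockout replicate 1). Atp1b3, a subunit of the sodium pump, read 8.62, 9.15 and 8.83 against 10.75, 10.86, 11.07, 10.02 and 9.98. The difference was -1.13 ± 0.22 (limma adjusted p = 0.0118, and 0.076 without knockout replicate 1). Fyb, the adaptor ADAP that couples the T cell receptor to integrin activation, was lower by 0.91 ± 0.21 (limma adjusted p = 0.0252, lost without knockout replicate 1 or 2, at up to 0.0837). Plk2, a polo-like kinase, Trim59 and Prps1, which makes the ribose phosphate for nucleotide synthesis, were lower by 1.25, 1.13 and 1.13 (limma adjusted p = 0.025, 0.0118 and 0.011). All 3 calls were lost without knockout replicate 1 (adjusted p = 0.123, 0.076 and 0.0723), that of Plk2 also without knockout replicate 2 or reporter replicate 5, and that of Prps1 also without knockout replicate 2.

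Among secreted effector genes, 35 of the listed chemokines and cytokines of activated T cells were measured, and 1 was called higher and 2 lower. Their median difference was -0.01, beside 0.04 over all genes. Of all genes tested, 1.52% were called higher and 1.17% lower, and the counts of each list below stand beside these shares. Il13, a type 2 cytokine, was the one called higher. It read 10.57, 9.81 and 11.25 in knockout cells and 10.08, 8.29, 9.54, 8.88 and 9.21 in reporter cells. Knockout replicate 2 lay below reporter replicate 1, so the groups overlapped, and the difference was 1.45 ± 0.38 (limma adjusted p = 0.0456). This call held in 2 of the 8 leave-one-out fits, those without knockout replicate 2 or reporter replicate 1, and its adjusted p ranged from 0.0265 to 0.165 over them.

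Tnf, the inflammatory cytokine of that name, was lower in knockout cells. It read 8.61, 8.06 and 8.73 in knockout cells and 9.15, 8.72, 9.26, 9.62 and 9.82 in reporter cells. The groups overlapped only where knockout replicate 3 met reporter replicate 2, and the difference was -0.94 ± 0.24 (limma adjusted p = 0.0381, called only without knockout replicate 3 or reporter replicate 2 among the 8 leave-one-out fits, with adjusted p values from 0.0229 to 0.182). With the study 2 arrays alone it was -1.25 and was called (adjusted p = 0.0415). Il2, the T cell growth factor and a known target of repression by Foxp3, read 4.16, 3.85 and 4.05 in knockout cells and 4.87, 4.55, 4.14, 5.19 and 4.89 in reporter cells. All of these levels, other than the 5.19 of reporter replicate 4, lay under the lower quartile of all array values (5.17). The difference was -0.83 ± 0.17 (limma adjusted p = 0.0155), and the call was lost without knockout replicate 1 or 2, at up to 0.0809.

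The promoters of both brighter cytokine genes are printed because Il13 was higher and Tnf lower in the knockout cells. The letters are the 250 bases before the start of each gene, 5′ to 3′ on the strand of the gene, from RefSeq on build GRCm38.p6. The Il13 promoter lies at chr11:53634703-53634952 and that of Tnf at chr17:35202008-35202257, both on the minus strand. Capitals mark matches, on either strand, to TGGAAA, the core recognised by NFAT factors, and to AGATAA, recognised by GATA factors.
Il13: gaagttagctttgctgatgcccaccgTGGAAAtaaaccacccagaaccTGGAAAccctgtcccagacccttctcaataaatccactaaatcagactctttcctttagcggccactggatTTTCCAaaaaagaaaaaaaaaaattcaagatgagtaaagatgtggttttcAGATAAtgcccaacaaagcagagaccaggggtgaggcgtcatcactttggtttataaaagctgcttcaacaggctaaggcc
Tnf: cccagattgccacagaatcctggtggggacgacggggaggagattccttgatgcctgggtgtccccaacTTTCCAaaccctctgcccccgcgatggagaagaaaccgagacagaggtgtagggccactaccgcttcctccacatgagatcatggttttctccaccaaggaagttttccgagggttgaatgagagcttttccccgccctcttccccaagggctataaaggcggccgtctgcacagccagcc
The Il13 window held 3 matches to TGGAAA, at 224, 202 and 131 bases before the start, and 1 to AGATAA at 81. The Tnf window held 1 match to TGGAAA, at 181. Of 27025 mouse promoters of this length, 18.7% hold TGGAAA and 10.3% hold AGATAA. The forkhead letters GTAAACA, recognised by factors of the family of Foxp3, were in neither window and in 3.09% of all promoters. They were in 5 of the 176 promoters found for genes called higher (2.84%), in 3 of 147 for genes called lower (2.04%) and in 313 of 11894 for all genes tested (2.63%). No matches overlap one another in these windows, and a match describes letters, not binding.

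Of the Foxp3-dependent regulatory T cell signature, 23 genes were measured, and 1 was called higher and 0 lower, beside 1.52% and 1.17% of all genes. The median difference of the list was -0.18. That median was 0.00272 with cyclic loess and 0.10 in study 2 alone, where the median of all genes was 0.04, so its side is not settled. The one called was Entpd1, which encodes CD39, the enzyme that begins the breakdown of extracellular ATP towards adenosine. Entpd1 read 9.84, 9.97 and 9.75 on the knockout arrays and 8.26, 9.35, 8.39, 9.26 and 8.21 on the reporter arrays. The knockout arrays were tight and all above the reporter arrays, which spread over more than 1 log2 unit within both studies. The difference was 1.31 ± 0.32, or 2.48-fold (limma adjusted p = 0.0353), and the call was lost without knockout replicate 1 or 2 or reporter replicate 1, 3 or 5, with adjusted p values from 0.0166 to 0.123 over the 8 leave-one-out fits. Nt5e, which encodes CD73, the enzyme that completes the same pathway, differed by -0.69 ± 0.33 (limma adjusted p = 0.244). Il2ra, which encodes CD25, read 12.79, 12.68 and 13.23 against 11.78, 11.32, 12.10, 12.28 and 12.21. Its knockout arrays were the highest, but its difference in the fit with the study term was 0.47 ± 0.18 and was not called (limma adjusted p = 0.152). The integrin chain Itgae, the transcription factor Ikzf2 and the receptor Nrp1 differed by -0.29, -0.18 and -0.51, with limma adjusted p values of 0.693, 0.727 and 0.498. Without reporter replicate 5 these became 0.31, -0.04 and -1.04, so that Itgae changed direction, and without knockout replicate 1 Ikzf2 was -0.06. Itgae also moved to -0.08 without knockout replicate 2, -0.50 without knockout replicate 3 and -0.67 without reporter replicate 4, and Ikzf2 to -0.32 without knockout replicate 3. The cytokine Il10 ranged from 8.44 to 9.12 in knockout cells and from 4.76 to 9.12 in reporter cells, a difference of 1.54 ± 0.61 (limma adjusted p = 0.166, and 0.0493 without reporter replicate 3).

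Among 13 measured genes known as repressed by Foxp3, 0 were called higher and 1 lower, and the median difference was -0.29. The gene called lower was Il2. In 11 of the 13 the difference was negative, as in 6624 of all 14860 genes, the exceptions being Ifng (0.58, limma adjusted p = 0.232) and Pde3b (0.02, adjusted p = 0.966). The count over all genes is not matched for brightness, and 12 of the 13 had mean levels above the array median. The regulator Id2 differed by -0.22 and the interleukin 7 receptor chain Il7r by -0.56, neither called (limma adjusted p = 0.467 and 0.117), although Il7r reached 0.0313 without reporter replicate 4. In bulk samples such as these, fewer cells of a kind and less RNA per cell cannot be told apart.

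No member of the lists of Th1 genes (15 measured), Th17 genes (13) or cytotoxic genes (14) was called in either direction. At an unadjusted p under 0.05, 3 Th1 genes were higher and 1 lower, 1 Th17 gene was higher and 1 lower, and 4 cytotoxic genes were higher and 1 lower, beside 20.6% of all genes in either direction. The median differences were 0.20, -0.05 and 0.38. The Th1 regulator Tbx21 differed by 0.46 ± 0.22 and Ifng by 0.58 ± 0.27 (limma adjusted p = 0.247 and 0.232), and Ifng reached 0.0471 without reporter replicate 4. The receptor genes Il12rb2, Il18r1 and Cxcr3 differed by 1.38, -1.31 and 1.11, none called, although Il18r1 (limma adjusted p = 0.0563) reached 0.0141 without knockout replicate 3 and 0.0362 without reporter replicate 4. Gzma, the granule protease granzyme A, read 11.68, 11.81 and 12.21 in knockout cells and 10.54, 11.21, 11.11, 11.18 and 9.49 in reporter cells. Those arrays did not overlap, but the difference of 1.71 ± 0.47 missed the threshold (limma adjusted p = 0.054, with 0.025 without reporter replicate 4 and up to 0.147 without another array). Granzyme B, encoded by Gzmb, read 12.77 to 13.52 in knockout cells and 11.42 to 12.94 in reporter cells, a difference of 1.16 ± 0.66 (limma adjusted p = 0.319).

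Of 14 measured Th2 genes, 1 was called higher and 0 lower, with a median difference of 0.48. Il13 was the gene called. Gata3, the transcription factor that specifies the lineage, read 11.39, 10.38 and 10.78 against 11.43, 10.97, 10.90, 10.92 and 11.02. The groups overlapped, with a difference of -0.41 ± 0.24 (limma adjusted p = 0.338). The cytokine genes Il4, Il9 and Il24 differed by 0.44, 1.13 and 0.89, with limma adjusted p values of 0.389, 0.0709 and 0.148, the last being 0.0344 without reporter replicate 3. Csf2, which encodes the growth factor GM-CSF, read 10.35 to 11.12 in knockout cells and from 6.63 on reporter replicate 5 to 11.08 on reporter replicate 1. Its difference was 1.52 ± 0.71 with all arrays (limma adjusted p = 0.232), and 0.37 without reporter replicate 5.

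Among 16 measured follicular helper and co-inhibitory genes, 0 were called higher and 3 lower, beside 1.52% and 1.17% of all genes, and the median difference was -0.30. The 3 were Slamf6, a self-binding receptor of lymphocytes, Bcl6, the transcription factor that specifies follicular helper cells, and Tox, a nuclear factor of T cell development and exhaustion. Slamf6 read 6.63, 6.57 and 6.10 in knockout cells, 5.98, 5.95 and 6.58 on the study 1 reporter arrays and 6.96 and 8.03 on those of study 2. Bcl6 read 6.13, 6.08 and 6.66 in knockout cells, 5.95, 6.44 and 5.89 in study 1 and 6.57 and 7.77 in study 2. Tox read 6.45, 6.73 and 6.59 in knockout cells, 6.35, 6.87 and 6.82 in study 1 and 7.61 and 7.04 in study 2. In all 3 genes the knockout arrays overlapped the study 1 reporter arrays, and in Slamf6 and Tox they were all below the study 2 reporter arrays. The differences, set against study 2 by the study term, were -1.13 ± 0.29, -0.89 ± 0.23 and -0.75 ± 0.16 (limma adjusted p = 0.0408, 0.0454 and 0.0202). With the study 2 arrays alone they were -1.06, -0.88 and -0.73 and were not called (limma adjusted p = 0.149, 0.149 and 0.0811). Among the 8 leave-one-out fits, Slamf6 stayed called only without reporter replicate 2 or 4 and Bcl6 only without knockout replicate 3 or reporter replicate 4, with adjusted p values elsewhere of up to 0.123 and 0.192. Tox was lost without knockout replicate 1 or reporter replicate 4 (up to 0.113).

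Receptors and signalling molecules of T cells gave few calls. Of 22 measured members of the TNF receptor family and costimulators, 1 was called higher and 0 lower, with a median of -0.07: Cd40, a receptor for CD40 ligand, read 6.93, 6.96 and 6.49 against 5.92, 6.10, 5.92, 6.16 and 6.23. The groups did not overlap, the difference was 0.65 ± 0.14, and the limma adjusted p of 0.0221 became 0.123 without knockout replicate 1 and 0.111 without knockout replicate 2. In the list of T cell receptor signalling, 27 genes were measured, 0 were called higher and 1 lower, with a median of -0.17, and the gene called was Ptpn6. Naive and homing genes had 0 calls among 14, with 6 lower and 0 higher at an unadjusted p under 0.05, the level that 20.6% of all genes reached, 1748 higher and 1309 lower of 14860. The egress receptor S1pr1 differed by -1.15 ± 0.36, the factor Klf2 that drives it by -0.49 ± 0.23 and the lymph node homing receptor Ccr7 by -0.71 ± 0.27 (limma adjusted p = 0.0895, 0.236 and 0.156), and S1pr1 reached 0.0218 without reporter replicate 4. Of the 17 chemokine receptors measured, 0 were called, with 6 higher and 1 lower at an unadjusted p under 0.05, and Cxcr6 differed by 1.24 ± 0.36 (limma adjusted p = 0.0699, and 0.0414 without reporter replicate 2). Ccl20, the ligand of CCR6, was higher by 0.93 ± 0.23, at 7.0, 7.13 and 6.38 against 5.62 to 6.0 (limma adjusted p = 0.0339, lost without knockout replicate 1 or 2 or reporter replicate 3, 4 or 5, at up to 0.162).

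**Figure D3:**
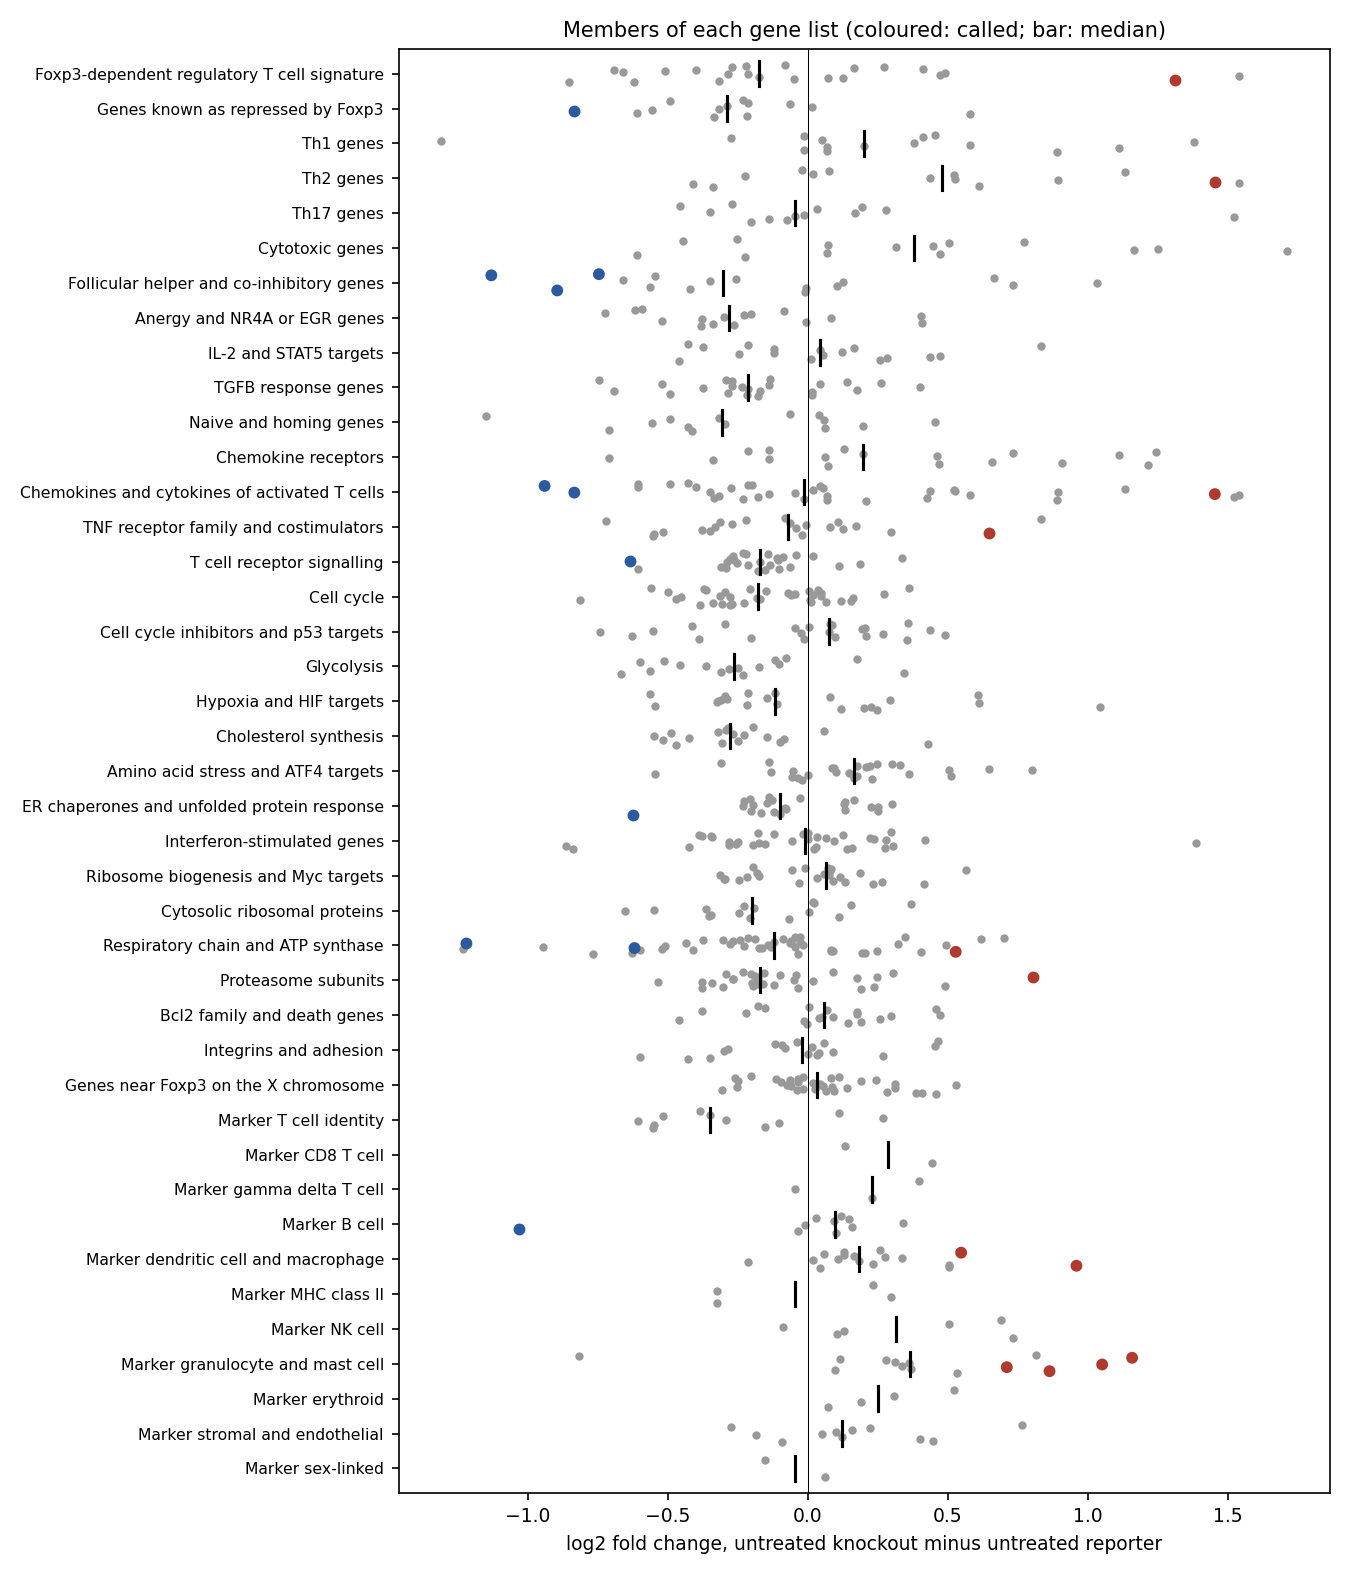
Each row is a gene list and each point a measured member, placed by its knockout minus reporter difference (log2). Coloured points are called genes, red for higher and blue for lower, and the black bars are list medians. Of the 41 lists, 28 hold no called gene, and no list has more than 4.

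Growth and metabolic genes gave few calls. None of 36 cell cycle genes was called, with a median of -0.18. At an unadjusted p under 0.05, 2 were lower and 0 higher, beside 1309 lower and 1748 higher of all 14860 genes. Mki67, the proliferation antigen, read 7.59, 8.24 and 8.81 in knockout cells and 8.71 to 10.37 in reporter cells. Its difference was -0.50 ± 0.42 (limma adjusted p = 0.51). None of 16 glycolysis genes was called (3 lower and 0 higher at an unadjusted p under 0.05). In 14 of the 16 the difference was negative, with a median of -0.26, beside 6624 negative differences among all 14860 genes. That comparison is not matched for brightness, which differed by direction among the called genes. Mean levels were above the array median in 15 of the 16 and in 8103 of all genes. Of 47 measured genes of the respiratory chain and ATP synthase, 1 was called higher and 2 lower, beside 1.52% and 1.17% of all genes, with a median of -0.12. Those lower were Ndufb9 and Ndufa5, accessory subunits of complex I, and the one higher was Cox4i1, a subunit of complex IV. Ndufb9 read 7.82, 7.66 and 8.14 in knockout cells, 8.11, 7.87 and 8.15 in study 1 reporter cells and 9.41 and 8.64 in study 2 reporter cells. It overlapped study 1 and lay below study 2, with a difference of -1.22 ± 0.19 (limma adjusted p = 0.00321, and 0.0615 with study 2 alone). Ndufa5 and Cox4i1 differed by -0.62 ± 0.15 and 0.53 ± 0.13, with arrays that did not overlap (limma adjusted p = 0.0323 and 0.036). Ndufa5 was lost without knockout replicate 1 or 2 or reporter replicate 1 (up to 0.166), and Cox4i1 was kept only without reporter replicate 3 or 4 (up to 0.145 elsewhere). Among 32 proteasome subunits, Psmd14, the deubiquitinase of the lid, was the one called, higher by 0.80 ± 0.20 (limma adjusted p = 0.0387, kept only without reporter replicate 3 or 4, with up to 0.16 elsewhere), and 23 of the 32 differences were negative. Calr, which encodes the chaperone calreticulin, was the one called among 23 genes of endoplasmic reticulum folding, lower by 0.62 ± 0.12 (limma adjusted p = 0.012, and 0.0715 without knockout replicate 1).

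The other lists of T cell programmes held no called gene in limma. Among 23 TGFB response genes the median difference was -0.21. At an unadjusted p under 0.05, 3 were lower and 0 higher, beside 1309 lower and 1748 higher of all 14860 genes. The 16 anergy, NR4A and EGR genes had 6 lower and 2 higher at that level and a median of -0.28, with Nr4a3, a nuclear receptor induced by the T cell receptor, at -0.72 (limma adjusted p = 0.0587). For 36 interferon-stimulated genes the median was -0.01, with 1 higher and 3 lower, and Ifitm3, an antiviral membrane protein, differed by 1.39 and was not called (limma adjusted p = 0.063, and 0.0205 without reporter replicate 4). The 18 cholesterol synthesis genes had a median of -0.28 with 16 negative differences (6624 of 14860 over all genes). Here too brightness was not matched, with 16 of the 18 above the array median. Medians were -0.20 for the 16 cytosolic ribosomal protein genes and 0.07 for the 26 ribosome biogenesis and Myc targets. The 27 amino acid stress and ATF4 targets had a median of 0.16. At an unadjusted p under 0.05 these 4 lists had 1 lower, 1 lower, 1 higher and 3 higher genes. The 17 IL-2 and STAT5 targets, 23 cell cycle inhibitors and p53 targets, 21 hypoxia and HIF targets, 20 Bcl2 family and death genes and 18 integrins and adhesion genes had medians of 0.04, 0.08, -0.12, 0.06 and -0.02. In the same order, 2, 1, 3, 1 and 1 of their genes were higher and 1, 3, 0, 2 and 1 lower at an unadjusted p under 0.05. Bnip3l, a mitophagy receptor induced by hypoxia, was not called (1.04, limma adjusted p = 0.0509, and 0.0371 without reporter replicate 5).

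The labelled cell type was checked against defining markers. Cd4 read 10.69 to 10.81 in knockout cells and 10.19 to 10.82 in reporter cells, and Cd3e 10.85 to 11.21 and 10.78 to 11.73. Of 11 T cell identity genes, all above the array median, 0 were called. At an unadjusted p under 0.05, 0 were higher and 4 lower, beside 1748 higher and 1309 lower of all 14860 genes. The mean level of this list ran from 9.90 to 10.10 over the knockout arrays and from 10.13 to 10.28 over the reporter arrays, and its median difference was -0.35. Cd2, the surface protein that the sort names, read 10.33, 10.31 and 10.16 in knockout cells and 11.53, 11.14, 11.33, 10.54 and 11.06 in reporter cells, which did not overlap. The fit gave -0.55 ± 0.17 (limma adjusted p = 0.0846). Cd8a read 5.94 to 6.77 over both groups, while Cd8b1 read 9.22 to 9.98, and neither was called (limma adjusted p = 0.42 and 0.649).

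Most genes of other blood cells lay below the array median, and the few that were called were mostly higher in the knockout cells. Some were bright in both groups: the knockout and reporter means were 10.19 and 9.40 for Nkg7, a granule protein of NK and cytotoxic T cells, 8.05 and 7.97 for the macrophage marker Cd68, and 7.75 and 7.85 for the class II gene H2-Ab1. The list of granulocyte and mast cell markers held 14 measured genes, 4 called higher and 0 lower, beside 1.52% and 1.17% of all genes. Its median difference was 0.36, beside 0.39 over the olfactory and vomeronasal receptors. Those called were Retnlg (1.16 ± 0.16), the basophil protease Mcpt8 (1.05 ± 0.19), the mast cell carboxypeptidase Cpa3 (0.86 ± 0.16) and the IgE receptor chain Fcer1a (0.71 ± 0.16), with limma adjusted p values of 0.00107, 0.00705, 0.0102 and 0.0237. Mcpt8, the brightest of these, read 6.45, 6.54 and 7.01 in knockout cells and 5.14 to 5.85 in reporter cells. Retnlg read 4.61, 4.99 and 4.75 against 3.33 to 3.74, below the lower quartile in both groups. S100a8, an abundant neutrophil gene, read 2.78 to 3.36 against 3.83 to 4.91 and was not called (-0.82, limma adjusted p = 0.0549, and 0.0441 without reporter replicate 2). The call of Fcer1a was lost without knockout replicate 1 or 2 or reporter replicate 4 (up to 0.1), and those of the other 3 held in every leave-one-out fit. The mean level of the list was 5.18 to 5.32 in knockout cells and 4.79 to 4.86 in reporter cells, and Elane, a neutrophil protease gene, and Mcpt8 had knockout means of 6.84 and 6.67, above the array median, while the others had both group means below it.

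Of 17 dendritic cell and macrophage genes, C1qb (0.96 ± 0.24) and Tlr4 (0.55 ± 0.13) were called higher and 0 lower, with a median of 0.18 (limma adjusted p = 0.036 and 0.0273). C1qb was lost without knockout replicate 1 or 2 or reporter replicate 4 (up to 0.178), and Tlr4 without any knockout array or reporter replicate 4 or 5 (up to 0.0771). The list means were 5.50 to 5.75 and 5.25 to 5.53. Of 10 B cell genes, 0 were called higher and 1 lower: Cd72, a coreceptor of B cells, read 6.4, 6.97 and 6.72 against 7.16, 6.94, 6.57, 7.16 and 7.88, overlapping study 1 only (-1.03 ± 0.22, limma adjusted p = 0.0168, lost without knockout replicate 1 or reporter replicate 5, at up to 0.112). None of the 6 NK cell markers, 4 MHC class II genes, 4 erythroid genes or 11 stromal genes was called. At an unadjusted p under 0.05, 2, 0, 1 and 1 were higher and 0 lower, beside 1748 higher and 1309 lower of all 14860 genes. The Y-linked genes Kdm5d and Eif2s3y read 3.66 to 3.82 and 2.94 to 3.06 in knockout cells and 3.62 to 3.96 and 2.75 to 3.05 in reporter cells. The part of other cells in the called genes was not tested. Of the remaining markers, 0 of 3 gamma delta T cell genes were called, and 0 of 3 had an unadjusted p under 0.05.

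Genes around Foxp3 on the X chromosome were examined because sequence from the stem cells or strain in which a gene is disrupted can stay linked to it. Of 34 measured neighbours 0 were called, with 2 higher and 1 lower at an unadjusted p under 0.05 (20.6% of all genes), and the median difference was 0.03. Cacna1f, Akap4 and Gripap1 differed by 0.39, 0.46 and -0.25 (limma adjusted p = 0.158, 0.12 and 0.194). Over the X chromosome, 13 of 473 genes were called (2.75%), beside a range from 1.67% to 4.1% over the autosomes.

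The genotype difference was then read in TGFB-treated cells, whose arrays are not those of the untreated groups. The comparisons are still not independent. The study term was estimated from reporter arrays of all 3 groups, and the spread of each gene from all 21 arrays. The TGFB arrays thus helped to decide which 400 genes were called, and 0 were called with the 8 untreated arrays fitted alone. Against hCD2-negative reporter cells 370 genes were called (2.49%), 231 higher (1.55%) and 139 lower (0.935%) in knockout cells. Against hCD2-positive cells 600 were called (4.04%), 308 higher (2.07%) and 292 lower (1.97%), and these TGFB comparisons share the 3 knockout arrays. Of the 400 genes called in untreated cells, 149 were also called against hCD2-negative cells and in the same direction, which is 37.2% of the untreated calls and 40.3% of the TGFB calls, and 0 were called in the opposite direction.

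Within study 2, which leaves the study term out of the TGFB values, 392 of the 400 genes (98%) differed in the same direction against hCD2-negative cells, beside 72.6% of all genes tested. In 356 (89%) the 3 knockout TGFB arrays were entirely on that side of the 2 reporter arrays, beside 30.5% of all genes. The calling of the 400 favoured genes that vary little among the TGFB arrays, so these shares are not separate support. For the 70 genes called in study 2 alone, where neither side uses the study term, 65 (92.9%) had the same direction and 57 (81.4%) separated. The fit that called those genes also took its spread in part from the TGFB arrays of study 2. The knockout arrays of both treatments had the higher deposited lower quartiles, so that a shared genotype effect and a shared normalization cannot be told apart here either.

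**Figure D4:**
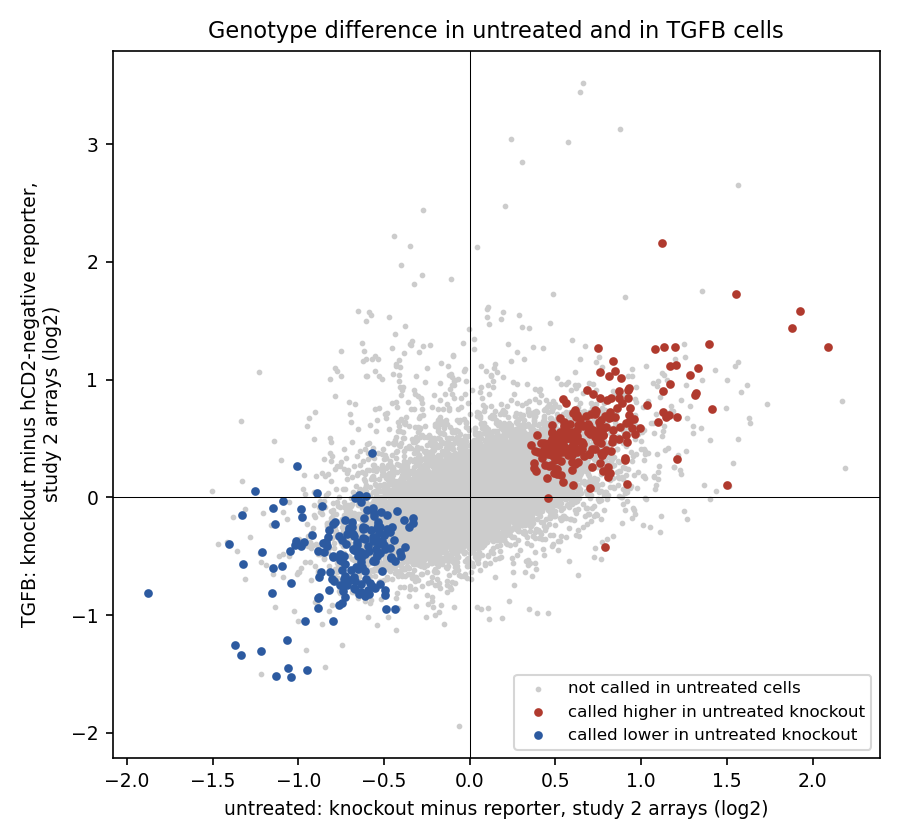
Each point is 1 of the 14860 genes, with the knockout minus reporter difference in untreated cells on the horizontal axis and that in TGFB-treated cells against hCD2-negative reporter cells on the vertical axis, both as log2 differences of means over study 2 arrays. Red and blue points are the genes called higher and lower in untreated knockout cells, and 392 of these 400 lie on the side of their call along the vertical axis.

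Of the 400 genes, 127 (31.8%) were called in the same direction in both TGFB comparisons. Fth1, Gpx4, Adgrg3, Aff3, Bmpr2, Ptpn6, Fyb, Cd40, Tox and Bcl6, described above, were not among them, while Ift80 and Nop10 were. The values that follow are of several genes that were called under TGFB too, and of some that were called in part. Rmi1 was higher by 1.18 against hCD2-negative and hCD2-positive TGFB cells alike (limma adjusted p = 0.00366 and 0.00247), beside 1.09 in untreated cells. Smim11 was higher by 0.62 and 0.71, and Nmral1 by 1.03 and 0.83 (limma adjusted p = 0.019, 0.00586, 0.00301 and 0.00825). Cd2ap was lower by 1.13 and 1.16, Nasp by 1.30 and 1.71 and Atp1b3 by 1.37 and 1.76, all called. Slamf6 was lower by 1.35 and 1.42 (limma adjusted p = 0.0178 and 0.00927). Gpx8 differed by 0.64 and 1.01 and was called in the second comparison (limma adjusted p = 0.117 and 0.0107). Entpd1 was higher by 1.90 against hCD2-negative cells (limma adjusted p = 0.00416) and differed by 1.0 against hCD2-positive cells (adjusted p = 0.087). In both genotypes its group means were lower under TGFB than in untreated cells.

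Il13 and Tnf were not called under TGFB. Against hCD2-negative cells, Il13 differed by 0.15 (limma adjusted p = 0.906) and Tnf by 0.02 (adjusted p = 0.987). The test of the difference between treatments took the genotype difference in untreated cells minus that under TGFB against hCD2-negative cells. It gave 1.30 for Il13 and -0.96 for Tnf, neither called (limma adjusted p = 0.83 and 0.575). Over all genes this test called 1 gene (0.00673%), lower, with 674 genes at an unadjusted p under 0.05 (4.54%). That gene was Kif23, a kinesin of cytokinesis, with -2.08 (limma adjusted p = 0.045). Its genotype difference was -0.51 ± 0.25 in untreated cells (adjusted p = 0.247) and 1.57 ± 0.25 under TGFB against hCD2-negative cells (adjusted p = 0.00269). Against hCD2-positive TGFB cells it was 0.45 and not called (limma adjusted p = 0.362).

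**Figure D5:**
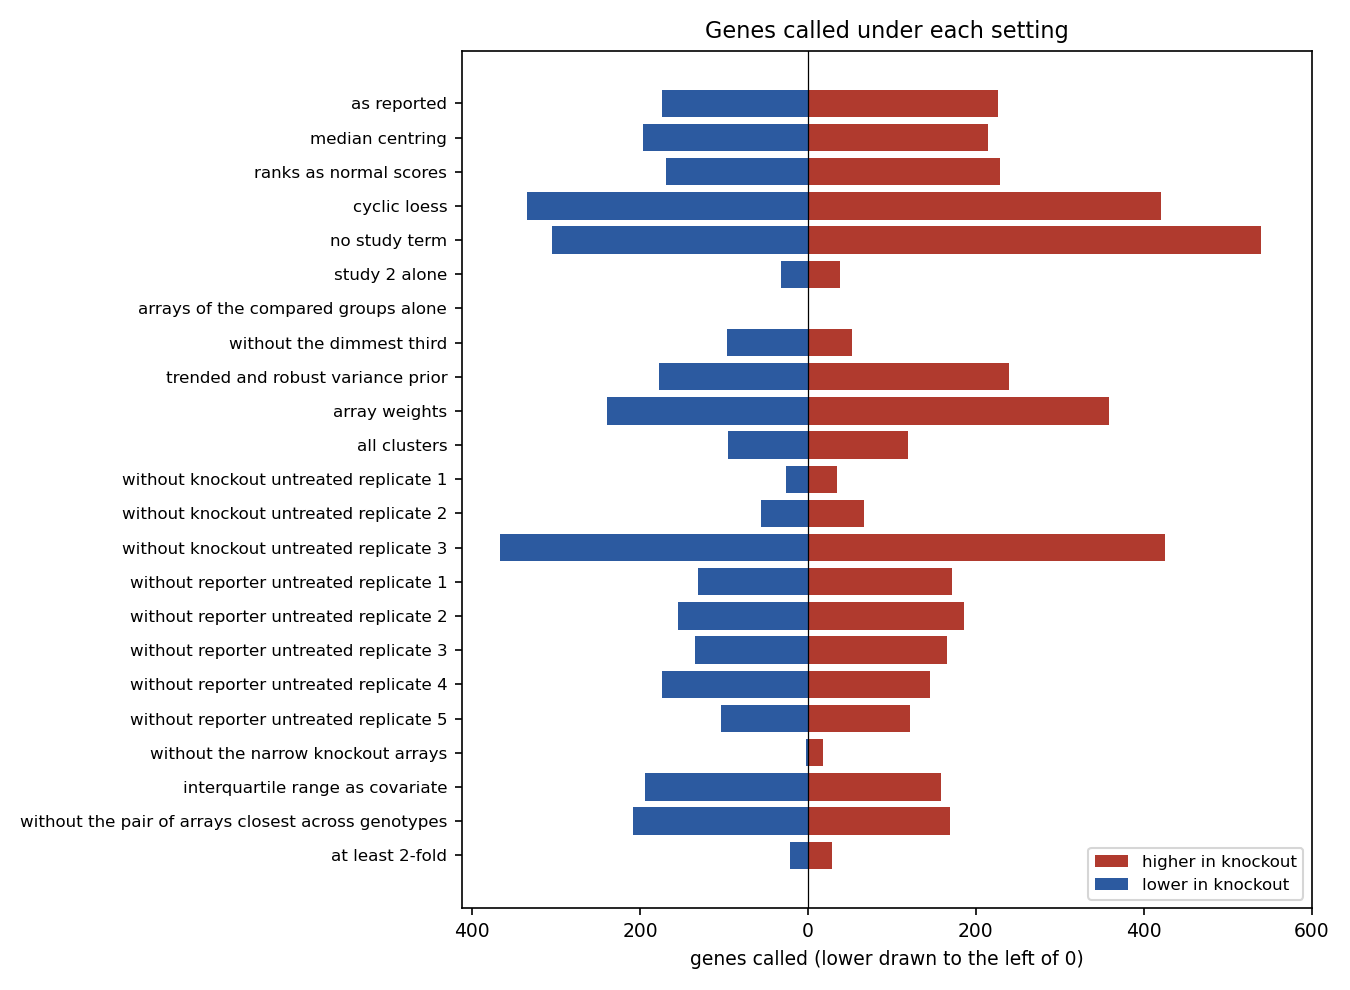
Genes called higher (red, right) and lower (blue, left) in untreated knockout cells, with the number of genes on the horizontal axis and 1 row per way of processing or array left out. The count was 400 as reported and ran from 60 to 792 when 1 array was left out. The deposited values and the fit with replicate numbers in place of study are not drawn, since their 6846 and 4468 calls would set the scale.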

How the data were processed

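RNA of 21 sorted cell samples was measured on 1 array each. The deposited log2 values come from RMA in Affymetrix Expression Console 1.2 on mm8, per the submitters' processing notes. The table holds 23332 transcript clusters, and 0 of its columns belong to other samples. Clusters were named from the platform annotation: 14996 had 1 symbol, 1019 several and 7317 none, 14941 were matched by gene identifier, and no update altered a symbol (0 of them). The brightest cluster stood for each of 135 genes that had several, leaving 14860 genes. Foxp3 shares a cluster with Flicr and was tested among all clusters.

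All clusters were quantile-normalized over the 21 arrays. The fit used limma 3.58.1 in R 4.3.3, with a mean for each of 5 groups, a study term and all arrays sharing 1 estimate of the spread, 2-sided moderated tests and Benjamini-Hochberg adjustment over 14860 genes. Every knockout array is of study 2, so the study term comes from the reporter groups. Replicates are labelled biological, but no animal or culture is named, and the p-values reflect the variation among these samples only. Arrays have no read depth, and their number limits the precision. One simulated data set of 14860 genes used the fitted levels and spread of each gene, independent noise and 1 change of scale common to all knockout arrays. In it, 85 of 100 2-fold and 100 of 100 4-fold changes were recovered, and 16 unchanged genes were called. The simulation had no knockout array that differed in range from the others or lay close to a reporter array, so these rates may not hold for the real arrays.

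The comparison, gene lists and panel were chosen with earlier results of these data known. Genes were named by rule: the 15 highest and 15 lowest called genes whose groups do not overlap and whose brighter group mean is above the array median, without predicted, olfactory, vomeronasal and receptor segment genes; called members of the lists (up to 5 per direction) and up to 3 uncalled ones; and a fixed panel. Some listed genes are not reported here. Other named genes are marked in the text. Alternatives were median centring, cyclic loess, ranks, the deposited values, other model terms, brightness filters and left-out arrays. Promoters are from RefSeq on GRCm38.p6.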

Additional observations from a re-analysis of the deposited data

Results flagged for a closer look

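Among the 5 untreated reporter arrays, a gap test for 1 array far from the others was applied to 115 genes and clusters that the text names or draws on, and it picked 4, where chance alone picks about 1 in 20 groups. Rmi1 stood at 7.35 on reporter replicate 4 and at 6.87 to 6.94 on the other reporter arrays, still below the knockout arrays. Spaca4 stood at 5.45 on reporter replicate 1 and at 6.10 to 6.27 on the others. Without that array its difference from the knockout cells was no longer called (limma adjusted p = 0.0599), as it was without knockout replicate 1 or 2 or reporter replicate 4 or 5, at up to 0.188. Gata3 read 11.4 on reporter replicate 1 and 10.9 to 11 on the others, and Ppcs 6.62 on reporter replicate 2 beside 6.71 to 6.73 at the nearest and farthest of the others.

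Kif23 was picked because its genotype difference in untreated cells differed from that under TGFB against hCD2-negative cells, by -2.08 on the log2 scale (limma adjusted p = 0.045). Against hCD2-positive TGFB cells its genotype difference was 0.45 and not called (limma adjusted p = 0.362). The means of Kif23 were 7.84 ± 0.21 (SD, n = 3) in untreated knockout cells and 8.59 ± 0.45 (SD, n = 5) in untreated reporter cells, and 6.88 and 5.56 in the TGFB-treated knockout and hCD2-negative reporter cells.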

How the results depend on the processing

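The untreated count of 400 was within 1.5 times under median centring (410), ranks (398), a trended and robust variance prior (418), array weights (597) and the covariates or pairs of arrays added after seeing the data: the interquartile range of each array (353, of which 55% lower, against 43.5% as reported) and leaving out the closest pair across genotypes (377, 55.2% lower). It was 6846 on the deposited values (0.307% lower), 756 with cyclic loess, 844 without the study term, 70 in study 2 alone, 149 with the dimmest genes left out (65.1% lower), 214 over all clusters, 50 at 2-fold or more, 20 without the narrow knockout arrays (10% lower), where the lone knockout array is assumed to vary like the other groups, and 0 with the compared arrays alone (2220 at an unadjusted p under 0.05). Leaving out 1 array gave 60 to 792. Counts of similar size did not hold all the same genes. Of the 400, 274 were called with median centring, 377 with ranks, 393 with the variance prior and 367 with array weights. With the interquartile range as a covariate 175 of them were called, and without the closest pair 236. The count against hCD2-negative TGFB cells, 370 as reported, was 8541 on the deposited values (0.117% lower), 105 with median centring, 655 with cyclic loess, 762 without the study term and 123 in study 2 alone. The test of the change between treatments called 4 genes with median centring, Kif23 among them. It called 0 without the study term and 0 in study 2 alone (423 and 588 at an unadjusted p under 0.05). Kif23 was the 1 gene called with ranks and with cyclic loess. The 1 gene called on the deposited values was not Kif23. The causes of these moves were not tested, apart from the fewer genes or arrays that a setting leaves.

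With the replicate number as a block in place of study, 4468 genes were called. The labels do not pair samples. Untreated replicates 1 to 3 are of study 1 in reporter cells and of study 2 in knockout cells, so the numbers were not taken as pairs. Deviations of same-numbered arrays correlated at 0.0844, 0.108 and 0.229, and those of differently numbered arrays at -0.185 to 0.104. These correlations do not decide the matter. Under that block Slamf6 turned to 0.31 (adjusted p = 0.329), Bcl6 to 0.21 (0.45), Id2 to 0.51 (0.0224), Rassf5 to 0.50 (0.00141), Capza2 to -0.46 (0.0135) and Tmbim6 to -0.18 (0.146). Rassf5 also turned without the study term (0.12, adjusted p = 0.832), and Kdm5d on the deposited values (0.27, adjusted p = 0.0222). Of 68 named genes called as reported, 26 remained called without knockout replicate 1, 42 without knockout replicate 2, 61 without knockout replicate 3 and 17 in study 2 alone. Of the 41 lists, 36 had their median on the same side of that of all genes under the reported, deposited, centred and loess scalings. The exceptions were IL-2 and STAT5 targets, cell cycle inhibitors and p53 targets, amino acid stress and ATF4 targets, ribosome biogenesis and Myc targets, and the Bcl2 family. In study 2 alone the regulatory T cell signature, IL-2 and STAT5 targets, p53 targets, B cell markers and MHC class II genes lay on the other side. Both groups lay below the array median in 48.8% of the calls, beside 42.6% of all genes tested. The share was 67.7% of the higher calls and 24.1% of the lower ones. Whether levels that low were above background was not tested.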

Other observations

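Of the genes called in untreated cells, 127 were also called in the same direction in both TGFB comparisons, which share the 3 TGFB-treated knockout arrays. All 3 comparisons come from the same fit, with a shared study term and spread. In 45 of them a group mean lay above the array median in untreated cells. The 8 named here were chosen after their values were seen. Tet2, a dioxygenase that starts the removal of DNA methylation, differed by -0.65 in untreated cells and by -0.60 and -0.55 against hCD2-negative and hCD2-positive TGFB cells (limma adjusted p = 0.0136, 0.0202 and 0.0224). Bmi1, a Polycomb protein, differed by -0.72, -0.89 and -0.81, and Ehmt1, a histone H3 lysine methyltransferase, by -0.40, -0.45 and -0.43. Atf2, a basic leucine zipper factor, differed by -0.64, -0.78 and -0.60, and the kinase gene Gsk3b by -0.45, -0.57 and -0.53. Rassf5, whose product RAPL links Rap1 to integrins, differed by -0.45, -0.48 and -0.48, and its untreated difference turned to 0.12 without the study term.

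Higher in all 3 were Cotl1, an actin-binding protein (0.66, 0.86 and 0.62), and Tmbim6, an inhibitor of cell death in the endoplasmic reticulum membrane (0.56, 0.76 and 0.58). Atf2 remained called in untreated cells in 7 of the 8 fits that left out 1 array, Tet2 and Tmbim6 in 6, Cotl1 in 5, Gsk3b and Bmi1 in 3, Ehmt1 in 2 and Rassf5 in 1.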
